A study of Drosophila melanogaster with 78 samples.

Results

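The 7 genes described here encode proteins of the Drosophila basement membrane, and one of them, Pxn, is also a marker of the embryo's blood cells. They were taken by gene symbol from the array's platform annotation: Mp, Pxn, LanA, LanB1, LanB2, vkg and trol. They are 7 of the 10844 genes that carry a single name on the array and are read by 10 of the 13966 probe sets tested, because Mp has 3 probe sets and trol has 2. The brightest probe set on average stands for each gene (152576_at for Mp and 142467_at for trol), and the others are described beside it.

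RNA came from whole Drosophila melanogaster embryos at stage 15 and was hybridised to 78 Affymetrix arrays in 18 groups of 4 or 5. The slit.robo group (5 arrays) carries both gene names in its title, slit (4) and robo (4) are mutants of the midline repellent and of its receptor, and slit/WT (4) and robo/WT (4) are read as embryos with 1 dose of the mutation. The robo2 and robo12 groups (4 each), comm (4) and comm/WT (4), which concern commissureless, a sorting protein that lowers the receptor on crossing axons, UNC5 (5), FRM, UC, UR and UR2 (4 each), UC2x, URyf and URyf.mef (5 each) are mutants or transgenics as labelled, and WT (5) is the common control. The labels name no allele, promoter, driver or agent, and do not expand robo12, FRM, UC, UC2x, UR, UR2, URyf or URyf.mef. The titles call the replicates biological and the descriptions technical, so p-values may measure technical spread only.

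The basement membrane is the thin sheet of matrix that underlies epithelia and wraps muscles, nerves, gut and heart. Its core is a laminin network, built in the fly from an alpha, a beta and a gamma chain, to which collagen IV, perlecan and nidogen are added. In the fly embryo, migrating blood cells called hemocytes lay down much of this matrix as they spread from the head along the ventral nerve cord, and the fat body becomes a large source later. In whole embryos, fewer cells of a type and less RNA per cell cannot be told apart.

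Values are log2 of the deposited intensity, so a difference of 1 is a doubling, and levels of different probe sets are not compared with each other. A change is the group mean minus the WT mean with its standard error from a limma model over all 78 arrays. It is called higher or lower where the Benjamini-Hochberg adjusted p over all 13966 probe sets lay below 0.05. Array medians of the intensity were 810.4 to 857.3, and the number of arrays limits the precision. The spread of log2 intensities within an array (its SD) had group means of 1.703 to 1.805 outside WT, against 1.711 ± 0.035 in WT (SD, n = 5), with 1.659 in WT replicate 1. Of the genes in the group titles, unc-5 stood at 13.26 ± 0.03 in UNC5 embryos and 11.45 ± 0.13 in WT (SD, n = 5 each). The comm gene stood at 11.59 ± 0.05 in comm embryos and 11.61 ± 0.06 in comm/WT (n = 4 each), against 11.84 ± 0.08 in WT (n = 5, SD), and so does not tell comm from comm/WT. The sli gene stood at 9.42 ± 0.21 in slit embryos and 10.14 ± 0.21 in slit/WT (n = 4 each), against 9.68 ± 0.33 in WT (n = 5, SD), with WT arrays overlapping both. The robo1 gene stood at 11.16 ± 0.22 in robo embryos and 11.09 ± 0.03 in robo/WT (n = 4 each), against 11.34 ± 0.17 in WT (n = 5, SD). A mutation need not change the RNA a probe set reads, so the last 2 genes do not check their labels.

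Across the 7 genes and the 17 comparisons with WT, 62 of 119 tests (52.1%) were called higher and 12 (10.1%) lower, where 16.4% of the tests over all probe sets were called higher and 23.4% lower. The 7 genes were chosen with earlier results of these data known, so these shares are no independent test of the set. The median change of the members was 0.28 and that of all probe sets -0.04. Apart from Mp (percentile 50.7), the members had mean levels at percentiles 78.6 (trol) to 98.6 (vkg) of all probe sets. The shares and the median over all probe sets are not matched for this brightness. All 17 comparisons share the same WT arrays, so they are not independent of each other. The calls of members depended on 1 of these arrays: without WT replicate 1, 38 tests were called higher and 17 lower. With the array SD as a covariate, 30 were called higher and 23 lower. The genes did not move as one. Mp was higher in 17 of 17 comparisons, trol in 14, LanA and vkg in 9, LanB2 in 7 and LanB1 in 6, while Pxn was lower in 7 and higher in none.

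By group, 6 of the 7 genes were higher in slit.robo (21.2% of all probe sets higher), comm/WT (21.1%), URyf.mef (24.3%) and UR2 (16.6%). The slit (15.8%), slit/WT (25.2%) and UNC5 (21%) groups had 5 genes higher, UR (14.4%) and FRM (17.4%) had 4, robo/WT (20.6%) had 3, and comm (12.1%) and UC2x (24.2%) had 2. In slit.robo and slit the gene called lower was Pxn (35.9% and 24.2% of probe sets lower). In robo2 (11.8% higher, 13.8% lower) and robo (7.81% higher, 8.82% lower), 2 genes were higher and Pxn was lower. At the other end, UC had 1 gene higher (12.4%) and 4 lower (15.4%), URyf had 1 higher (4.77%) and 2 lower (5.01%), and robo12 had 2 higher (8.51%) and 2 lower (10.1%). No gene was lower in slit/WT, robo/WT, comm, comm/WT, URyf.mef, UR2, UR, FRM, UNC5 or UC2x, where 37.5%, 26%, 15.4%, 33.4%, 40.7%, 21.1%, 18.8%, 23.4%, 33.3% and 34.7% of all probe sets were lower, in that order.

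In the 12 comparisons between related groups, whose differences hold no WT array but whose standard errors come from the fit to all 78 arrays, 40 of 84 tests were called, where 28.3% of the tests over all probe sets were. Without WT replicate 1 the count was 45. None of the 7 genes was higher in slit against slit/WT (13.8% of probe sets) or comm against comm/WT (9.52%), and 2 were lower in each (12.6% and 12.3%). In robo against robo/WT, 1 was higher (12%) and 1 lower (17.1%), and in slit against robo 2 were higher (12.7%) and none lower (11.3%). In slit.robo, 2 were higher than in slit (10.1%) and 4 higher than in robo (15%), with none lower (7.1% and 13.7%). In robo12, 2 were lower than in robo (3.44% of probe sets lower, 3.7% higher), and 3 lower (8.38%) and 1 higher (8.47%) than in robo2. In UC2x against UC, 6 were higher (30.5%) and none lower (38.7%), and in UR2 against UR none was called (2.91% higher, 2.93% lower). In URyf against UR all 7 were lower (14.5%) and none higher (13.6%), and in URyf.mef against URyf all 7 were higher (26.7%) and none lower (38.9%).

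**Figure D1:**
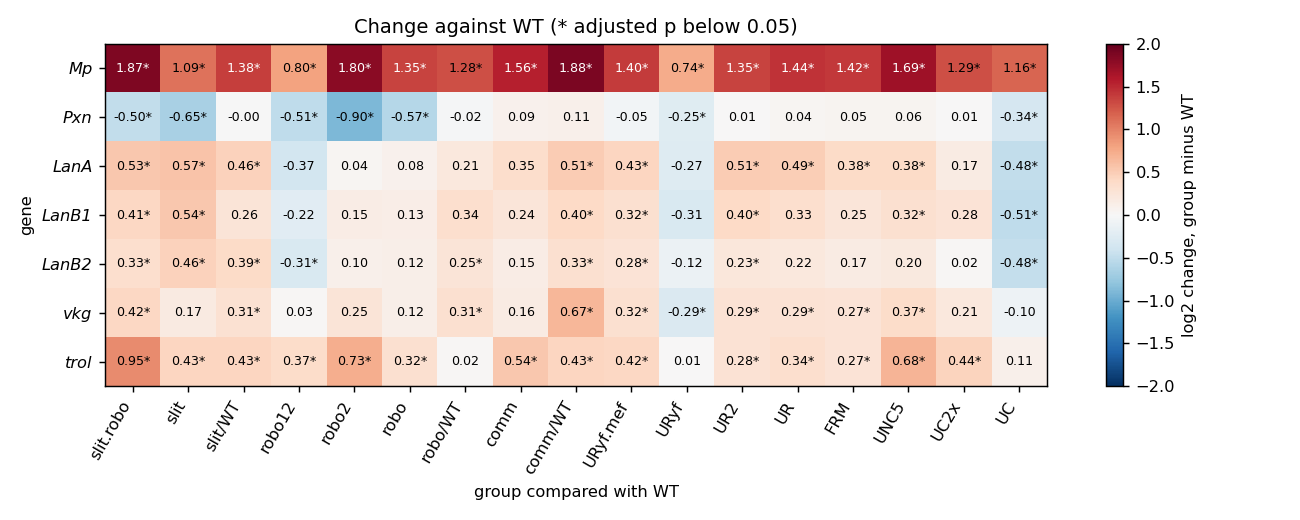
Change of each of the 7 genes against WT in each of 17 groups, as group minus WT on the log2 scale, with red for higher, blue for lower and an asterisk where the limma adjusted p is below 0.05. The row of Mp is red in all 17 groups, and the row of Pxn is blue in slit.robo, slit, robo12, robo2 and robo and near 0 in slit/WT, robo/WT, comm and comm/WT.

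Pxn encodes peroxidasin, a secreted peroxidase that crosslinks collagen IV, and its RNA is a common marker of embryonic hemocytes. Its level was lower in the 5 groups whose titles name slit or robo without WT, by 1.41- to 1.87-fold. In robo2 embryos the arrays read 10.66, 10.73, 11.00 and 11.19, in slit 11.15, 11.06, 11.11 and 11.24, and in robo 11.26, 11.07, 11.16 and 11.42. In robo12 embryos they read 11.27, 11.25, 11.32 and 11.29, and in slit.robo 11.21, 11.17, 11.33, 11.41 and 11.37. The WT arrays read 11.60, 11.97, 11.84, 11.70 and 11.86, so none of these 5 groups overlapped WT. Over all probe sets, every array lay below every WT array in 11.9% for slit.robo, 10.2% for slit and 6.87% for robo12. For robo2 the share was 9.13% and for robo 5.01%. A lower call in all 5 groups, a pattern taken from Pxn, was made for 175 of 13966 probe sets (1.25%). The robo2 arrays were spread over the widest range of the 5 groups, and the robo12 arrays lay closest together.

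Against WT, Pxn fell by 0.90 ± 0.08 in robo2 embryos (1.87-fold, limma adjusted p = 6.1e-15), where 9.13% of all probe sets had every array below every WT array. It fell by 0.65 ± 0.08 in slit embryos (1.57-fold, adjusted p = 1.5e-09). The drop was 0.57 in robo, 0.51 in robo12 and 0.50 in slit.robo, with limma adjusted p between 6.1e-08 and 1.4e-06. Among these groups, Pxn was higher in robo12 than in robo2 embryos by 0.39 (adjusted p = 0.00052). The differences of slit.robo from slit (0.16, 95% interval -0.01 to 0.32), slit.robo from robo (0.07) and slit from robo (-0.08) were not called.

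The groups read as carrying 1 dose stood at the WT level. In slit/WT embryos the Pxn arrays read 11.67, 11.76, 11.81 and 11.92, and in robo/WT embryos 11.72, 11.70, 11.80 and 11.88, all inside the WT range. Set against these groups in place of WT, Pxn fell by 0.65 ± 0.09 in slit embryos (adjusted p = 3.0e-08), and by 0.55 ± 0.09 in robo embryos (adjusted p = 8.0e-07). Neither pair of groups overlapped, and neither difference holds a WT array. Every mutant array lay below every /WT array for 12.9% of all probe sets in slit and 14.7% in robo. Of all probe sets, 32 (0.229%) had the 5 lower calls against WT and a lower call in both of these comparisons. In comm embryos, by contrast, the 4 arrays lay between 11.81 and 11.94, and the change against comm/WT was -0.02 (95% interval -0.20 to 0.15). The difference of the slit change from the comm change was -0.62 ± 0.12 (limma adjusted p = 0.00015), and that of the robo change from the comm change was -0.53 ± 0.12 (adjusted p = 0.0043). These differences were chosen for test after the values were seen.

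**Figure D2:**
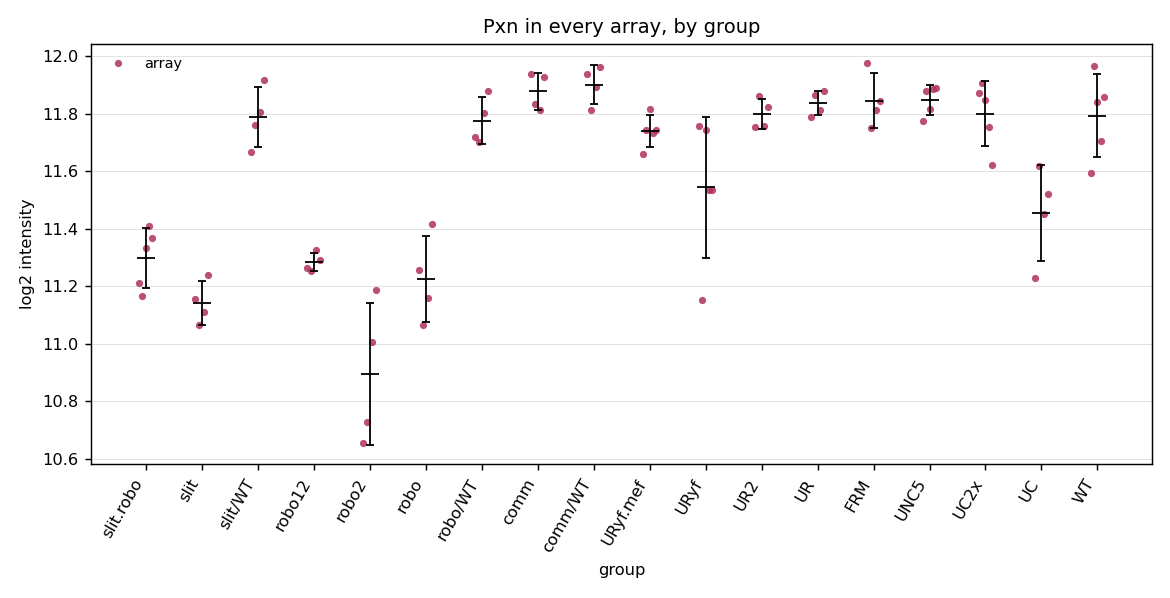
Log2 intensity of Pxn in each of the 78 arrays, by group, with group mean and SD as bars. The 21 arrays of slit.robo, slit, robo12, robo2 and robo lie between 10.66 and 11.42, and all but 2 of the other 57 arrays lie above them.

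In the remaining 13 groups the Pxn means lay between 11.46 in UC and 11.90 in comm/WT, and 2 of their 57 arrays were at or below the highest of the 21 arrays just described. These were single arrays of UC (11.23) and URyf (11.15). UC embryos were lower than WT by 0.34 (adjusted p = 0.0008) and lower than UC2x, which exceeded UC by 0.35 (adjusted p = 0.00018). URyf was lower than WT by 0.25 (adjusted p = 0.024). Without the array at 11.15 its change was -0.15 (adjusted p = 0.22), and the call was also lost without WT replicate 2, 3 or 5 (-0.24 to -0.20). No group had Pxn higher than WT.

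Other hemocyte markers moved in both directions in these groups. Of 16 hemocyte markers 15 were measured, and 8 of them (srp, gcm, crq, NimC1, Hml, eater, Sr-CI and lz) had mean levels in the lowest 40% of probe sets. Their summed intensity had medians of 22122 to 28457 in the 5 groups with low Pxn, against 26055 in WT, 30616 in slit/WT and 29304 in robo/WT, with arrays of 20824 to 28201 in WT. The sum follows mostly the brightest markers, PPO2 (mean log2 13.29), PPO1 (12.30) and drpr (12.04), and hardly the dim ones. It is therefore no measure of hemocyte number. The part of these markers in the Pxn result was not tested. In the 5 groups, Pvr, the receptor that hemocytes need for survival and migration, was higher than WT in 4. Its changes over all 5 were 0.18 to 0.78. The engulfment receptor gene drpr, also expressed by glia, was higher in 3. PPO1, the prophenoloxidase of crystal cells, was lower in slit.robo (-0.34), robo12 (-0.66) and robo (-0.49), and its relative PPO2 was lower in robo2 (-0.30) and robo (-0.36). In robo against robo/WT embryos, PPO1 fell by 0.37, PPO2 by 0.60, NimC4 by 0.32, drpr by 0.45 and ush by 0.24, while srp (-0.31, adjusted p = 0.088) and Pvr (-0.11) were not called. Of all probe sets, 17.1% were lower and 12% higher in that comparison. The mean GAPDH excess was 2.19 in robo/WT and 1.83 in robo, and its part in these differences was not tested. In slit against slit/WT, PPO1 (-0.10) and PPO2 (-0.11) were not called, ush, gcm, lz and drpr fell by 0.39, 0.21, 0.26 and 0.30, and NimC4 rose by 0.28.

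Over all 17 comparisons the hemocyte list was called higher in 29.8% of its 255 tests and lower in 14.1%, with a median change of 0.02. The shares over all probe sets were 16.4% higher and 23.4% lower. The 3 genes whose group means followed those of Pxn most closely over the 18 groups were Pex3 (r = 0.86), CG1542 (0.82) and CG8004 (0.82). Among the members, the group means of Pxn had r = 0.34 with LanA, 0.28 with vkg and -0.29 with trol, all over 18 groups that share processing and depth.

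Mp encodes Multiplexin, the fly collagen of the type XV and XVIII kind, known for roles in heart lumen formation, motor axon pathfinding and presynaptic homeostasis. Its representative probe set gave the lowest level in WT and a higher one in every other group. In comm/WT embryos the arrays of probe set 152576_at read 10.44, 10.62, 10.11 and 10.16, in slit.robo 10.21, 10.23, 10.69, 10.38 and 10.14, and in robo2 10.14, 10.23, 10.25 and 10.43. The group nearest to WT was URyf, with 8.85, 9.20, 9.24, 9.26 and 9.44, against 8.36, 8.49, 8.35, 8.51 and 8.57 in WT.

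The lowest of the 73 arrays outside WT thus lay above the highest WT array, a gap that 12 of 13966 probe sets (0.0859%) showed in this direction. In single comparisons, 1.14% (URyf) to 16.1% (slit/WT) of all probe sets had every array above every WT array. Against WT, Mp rose by 1.88 ± 0.10 in comm/WT (3.67-fold, limma adjusted p = 2.5e-24), by 1.87 ± 0.10 in slit.robo (3.66-fold, adjusted p = 4.0e-26) and by 1.80 ± 0.10 in robo2 (3.49-fold). In comm/WT, the arrays with the larger GAPDH excess (2.80 and 2.75, replicates 1 and 2) read 10.44 and 10.62. Replicates 3 and 4 read 10.11 and 10.16. The part of the GAPDH excess in the Mp result was not tested. The smallest rise was 0.74 ± 0.10 in URyf (1.67-fold, adjusted p = 2.5e-08), and the median over the 17 comparisons was 1.38. All of these differences turn on the WT arrays. Measured against the mean of the other 16 groups, Mp changed by -0.68 in URyf and -0.62 in robo12, where 51.4% and 49.3% of all probe sets were called. It was also called lower in slit (-0.31, 21.2%) and UC (-0.24, 66.6%). It was called higher in comm/WT (0.52, 36.9%), slit.robo (0.52, 29.5%), robo2 (0.45, 38.5%) and UNC5 (0.33, 20.3%).

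Within related groups, Mp was higher in slit.robo than in slit embryos by 0.78 ± 0.10 (adjusted p = 5.7e-09) and than in robo embryos by 0.52 (adjusted p = 0.00015). It was lower in robo12 than in robo2 by 1.01 ± 0.11, a 2.01-fold difference (adjusted p = 3.3e-11), and lower in robo12 than in robo by 0.55. Smaller differences stood between slit and slit/WT (-0.29, adjusted p = 0.044) and between comm and comm/WT (-0.32, adjusted p = 0.028). The first was lost on leaving out any of the 4 slit/WT arrays or slit replicate 1, 2 or 4 (-0.31 to -0.21), and the second without comm/WT replicate 1 or 2 or comm replicate 1 or 4. Replicates 1 and 2 of comm/WT were also those with the larger GAPDH excess in that group. The robo arrays spread from 9.49 to 10.29, so robo and robo/WT (9.58 to 9.95) overlapped, and no difference was called (0.07, 95% interval -0.15 to 0.29).

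The other probe sets named Mp did not follow this pattern. Probe set 148299_at was higher than WT in 8 of 17 comparisons, with a median change of 0.22, and its arrays cleared WT only in UC, where it rose by 0.61 (1.52-fold, adjusted p = 2.1e-06). In UC, 6.12% of all probe sets had every array above every WT array. Probe set 148297_at was higher in robo2 (0.23) and UC (0.30), lower in UC2x (-0.18) and URyf.mef (-0.20), and not called in the other 13. In slit.robo embryos, for example, the change was 1.87 by 152576_at, 0.36 by 148299_at and -0.07 by 148297_at. Over the 18 group means, 152576_at had r = 0.35 with 148299_at and -0.09 with 148297_at, while 148299_at and 148297_at had r = 0.72 with each other. The current RefSeq gene table lists 5 former gene identifiers under Mp. Which stretch of the gene each probe set reads is not stated by the labels or the annotation.

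**Figure D3:**
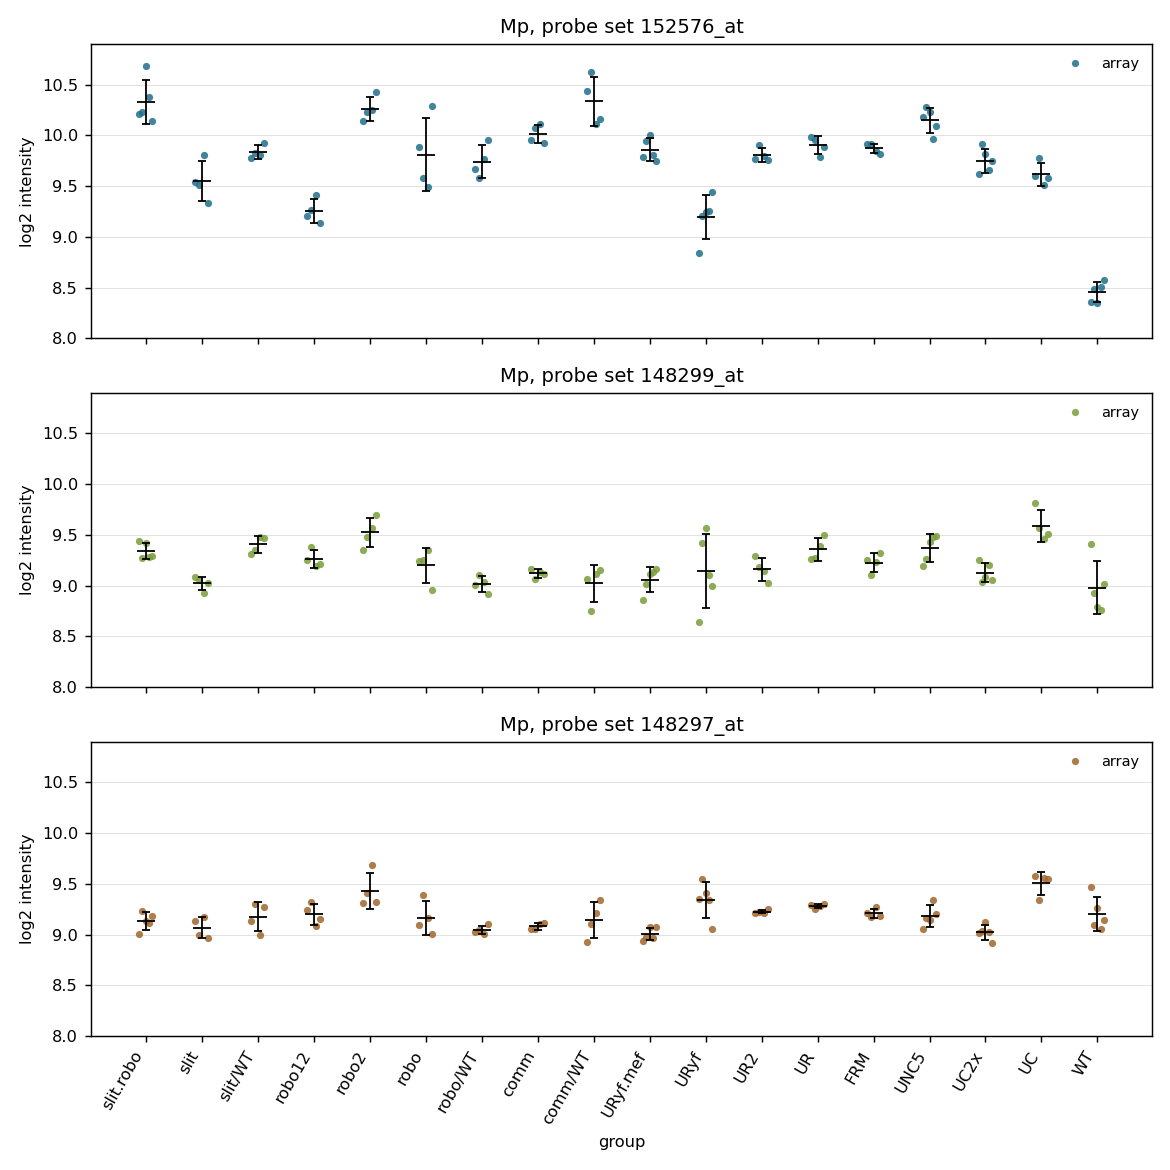
Log2 intensity of the 3 probe sets named Mp in each of the 78 arrays, by group, with group mean and SD as bars and the same axis in each panel. Probe set 152576_at has every array outside WT at 8.85 or higher and the 5 WT arrays between 8.35 and 8.57, while all groups but UC overlap WT for 148299_at, and all overlap it for 148297_at.

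The group means of Mp followed those of slf (r = 0.95), Cht6 (0.94) and Frq1 (0.94) most closely over the 18 groups. Cht6 encodes a chitinase. In the late epidermis and cuticle list, 48.5% of 136 tests against WT were higher and 16.2% lower, where 16.4% and 23.4% were over all probe sets. Gasp, which encodes a chitin-binding protein, was higher in 17 of 17 comparisons (median 0.76), Ddc, the dopa decarboxylase of cuticle tanning, in 15 (median 0.65) and obst-A in 17 (median 0.20). In contrast, ple, the tyrosine hydroxylase of the same pathway, was lower in 9 and higher in 1, and knk was lower in 6 and higher in 3. The part of this list in the Mp result was not tested.

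The trol gene encodes perlecan, the heparan sulfate proteoglycan that links the laminin and collagen IV networks. It was higher than WT in 14 of 17 comparisons and lower in none, and 11 of the 14 groups did not overlap WT. Over the 17 comparisons, 1.14% (URyf) to 16.1% (slit/WT) of all probe sets had every array above every WT array. The slit.robo arrays read 11.56, 11.61, 11.65, 11.65 and 11.27, and the robo2 arrays 11.46, 11.39, 11.06 and 11.41. The WT arrays read 10.42, 10.86, 10.55, 10.75 and 10.42, so that both groups lay above WT, each with a single array below its others. Perlecan RNA rose by 0.95 ± 0.07 in slit.robo (1.93-fold, limma adjusted p = 1.7e-18), by 0.73 ± 0.08 in robo2 (1.66-fold, adjusted p = 1.6e-12), by 0.68 ± 0.07 in UNC5 (1.60-fold) and by 0.54 ± 0.08 in comm (1.45-fold).

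It was not called in robo/WT (0.02, 95% interval -0.13 to 0.17), URyf (0.01, -0.13 to 0.15) or UC (0.11, -0.04 to 0.26). The slit.robo level exceeded that of slit embryos by 0.52 ± 0.08 (adjusted p = 8.7e-08) and that of robo embryos by 0.63 ± 0.08 (adjusted p = 1.2e-09), with no overlap in either. Of all probe sets, 8.88% had every slit.robo array above every slit array, and 8.17% above every robo array. Perlecan RNA was also higher in robo than in robo/WT embryos by 0.30 (adjusted p = 0.0032), with overlapping arrays. Between slit and slit/WT (0.00, 95% interval -0.16 to 0.16) and between comm and comm/WT (0.10) no difference was called.

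The second probe set of trol, 144405_at, was higher than WT in 13 of 17 comparisons and lower in none, but ranked the groups otherwise. The largest rise of 144405_at was in slit/WT (0.87 ± 0.08, 1.83-fold, adjusted p = 1.2e-13), where 142467_at rose by 0.43. In UC 144405_at rose by 0.61 while 142467_at changed by 0.11, and in comm 144405_at changed by 0.12 while 142467_at rose by 0.54. In UC2x against UC both probe sets were called in opposite directions, with 0.33 by 142467_at and -0.33 by 144405_at. Over the 18 group means their r was 0.40. Of slit.robo against slit, where 142467_at gave 0.52, 144405_at gave 0.04 and was not called. In robo embryos 144405_at stood at 8.67 ± 0.19 and in robo/WT at 8.71 ± 0.04 (SD, n = 4 each), where 142467_at was higher in robo. Both called trol higher in slit.robo, slit, slit/WT, robo12, robo2, comm/WT, URyf.mef, UR2, UR, FRM, UNC5 and UC2x.

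**Figure D4:**
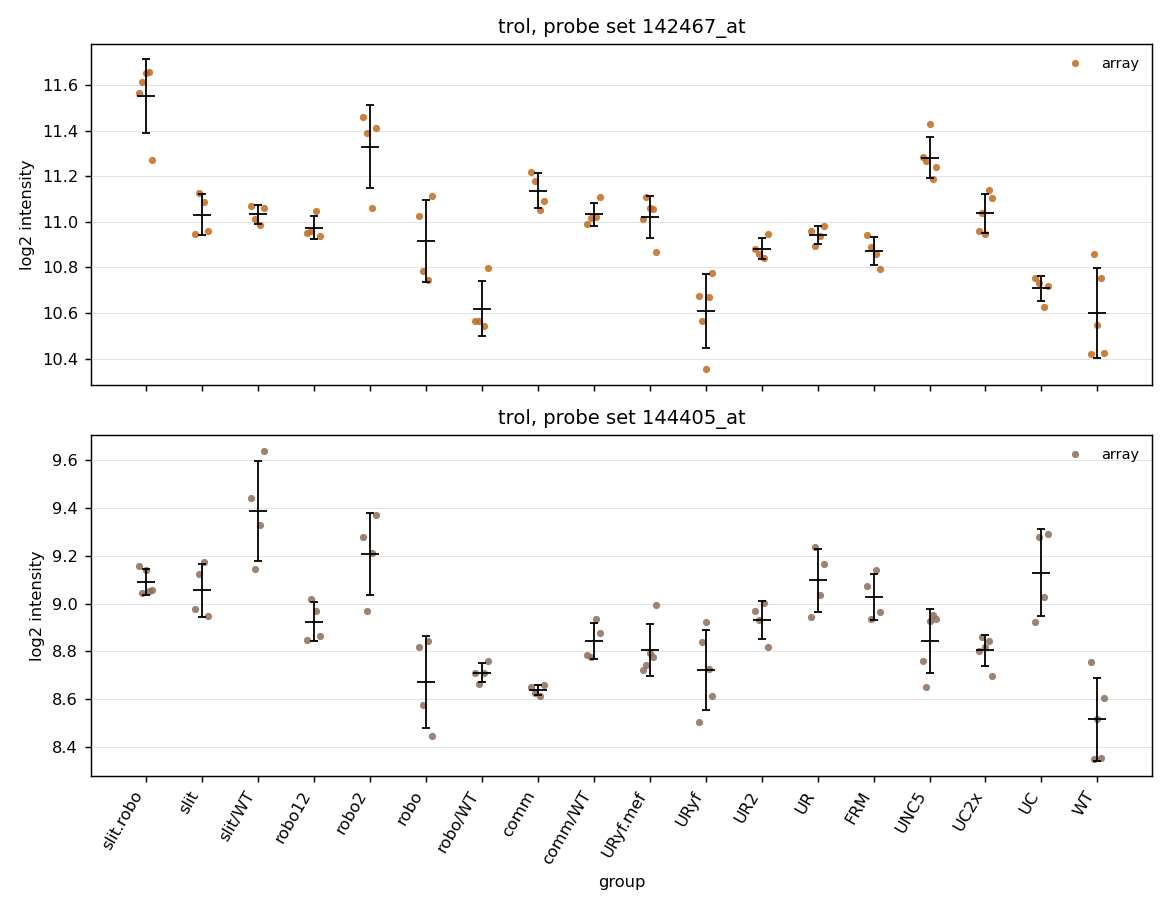
Log2 intensity of the 2 trol probe sets in each of the 78 arrays, by group, with group mean and SD as bars and an axis for each panel. By 142467_at the slit.robo group has the highest mean (arrays 11.27 to 11.65), and by 144405_at the slit/WT group (arrays 9.14 to 9.64).

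LanA, LanB1 and LanB2 encode the alpha, beta and gamma chains of laminin, the first network of the basement membrane. Their levels varied together: over the 18 group means r was 0.95 for LanA with LanB1, 0.94 for LanA with LanB2 and 0.94 for LanB1 with LanB2, and within groups over 78 arrays it was 0.92, 0.82 and 0.73. All 3 had their highest group mean in slit and their lowest in UC. In slit embryos LanA read 13.19, 13.22, 13.35 and 12.67, in UC embryos 11.57, 12.13, 12.24 and 12.27, and in WT 11.63, 12.80, 12.55, 12.89 and 12.82. The slit group has 1 low array, WT has 1 low array, and UC lies below all WT arrays but that one.

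Against WT, LanA, LanB1 and LanB2 rose in slit by 0.57, 0.54 and 0.46 (limma adjusted p = 0.0031, 0.0034 and 0.00012). They fell in UC by 0.48, 0.51 and 0.48 (adjusted p = 0.014, 0.0056 and 5.7e-05), with overlapping arrays. The UC calls of LanA and LanB1 were lost without UC replicate 1 (-0.32 and -0.37), and that of LanA also without WT replicate 2 or 4. LanB2 was also lower in robo12 (-0.31, adjusted p = 0.016), a call lost without WT replicate 2 or 5 or robo12 replicate 3 or 4 (-0.28 to -0.23). In slit.robo the 3 chains rose by 0.53, 0.41 and 0.33, and in comm/WT by 0.51, 0.40 and 0.33. In comm/WT, LanA read 13.07 and 13.31 in replicates 1 and 2, those with the larger GAPDH excess. It read 12.90 in each of replicates 3 and 4, and the part of the GAPDH excess was not tested.

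Most laminin calls against WT rested on WT replicate 1. This array read 11.63 for LanA, where the other 4 WT arrays lay between 12.55 and 12.89, and 11.20 for LanB1, where they lay between 12.10 and 12.37. Without it, LanA was higher in 0 of 17 comparisons and lower in 3, and LanB1 higher in 0 and lower in 3, against 9 higher and 1 lower, and 6 higher and 1 lower, with it. In slit the changes were then 0.34 for LanA (adjusted p = 0.059), 0.32 for LanB1 (adjusted p = 0.062) and 0.38 for LanB2, and LanB2 kept 4 higher calls. LanA in UC was then lower by 0.71 and LanB1 by 0.73. Like the other members, the chains moved with the spread of the arrays: within groups, r with the array SD over 78 arrays was 0.74 for LanA, 0.72 for LanB1 and 0.64 for LanB2, where it was 0.77 for vkg, 0.63 for trol, 0.53 for Pxn and 0.39 for Mp. With the array SD as a covariate, LanA and LanB1 were higher in 0 comparisons and LanB2 in 1. With quantile normalization LanA was higher in 5 and LanB1 and LanB2 in 1 each, and in fits to the compared groups alone LanA was higher in 1 and LanB1 in 0. The part of this spread in the laminin result was not tested otherwise.

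Differences between related groups, whose means hold no WT array, included laminin calls too. UC2x exceeded UC by 0.66 ± 0.16 for LanA, 0.79 ± 0.15 for LanB1 and 0.50 ± 0.10 for LanB2 (limma adjusted p = 0.0002, 5.2e-06 and 7.8e-06), with no overlap. Of all probe sets, 24% had every UC2x array above every UC array. The mean array SD was 1.797 in UC2x and 1.703 in UC, and with it as a covariate the differences were -0.03, 0.16 and 0.14, none of them called. URyf was lower than UR by 0.76 for LanA, 0.64 for LanB1 and 0.34 for LanB2, and URyf.mef was higher than URyf by 0.70, 0.63 and 0.40. Of the calls of the 7 genes in these 2 comparisons, those of Pxn were lost without URyf replicate 2 (-0.19 and 0.10), that of Pxn in URyf.mef against URyf also without URyf.mef replicate 3 (0.18), and that of LanB2 in URyf against UR without UR replicate 2. The mean array SD was 1.805 in URyf.mef, 1.710 in URyf and 1.760 in UR. With it as a covariate, URyf.mef against URyf gave 0.01 for LanA, -0.01 for LanB1, 0.05 for LanB2 and -0.05 for Pxn, none of them called, while LanA and LanB1 stayed lower in URyf than in UR (-0.40 and -0.30) and LanB2 was not called (-0.15). The URyf arrays were uneven: LanB1 read 12.29, 10.91, 11.58, 11.87 and 12.09, against 12.34, 12.33, 12.55 and 12.33 in UR. Their array SDs were uneven as well, with 2 of 5 standing over 0.05 from the group median.

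The slit and robo embryos differed in laminin RNA: LanA was higher in slit by 0.49 (adjusted p = 0.022) and LanB2 by 0.34 (adjusted p = 0.0079), and LanB1 (0.40, adjusted p = 0.0505) missed the threshold. LanA lost this call in 5 of the fits that left out 1 of these arrays: without slit replicate 1, 2 or 3 or robo replicate 2 or 3 (0.41 to 0.48). LanB2 lost it without slit replicate 3 (0.25, adjusted p = 0.093). LanB2 was lower in robo12 than in robo by 0.42 and than in robo2 by 0.41. Neither slit against slit/WT nor robo against robo/WT gave a laminin call, with LanA at 0.11 (95% interval -0.22 to 0.44) and -0.12 (-0.45 to 0.20).

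The vkg gene encodes an alpha chain of collagen IV, which assembles with the chain encoded by its neighbour Col4a1. No other protein-coding gene lies between them in the RefSeq gene table. The comm/WT arrays read 14.76, 14.70, 14.60 and 14.60, above every array of WT (13.32, 14.29, 14.17, 14.04 and 14.16) and of the next group, slit.robo (14.49, 14.40, 14.39, 14.46 and 14.33). Every comm/WT array lay above every WT array for 12.6% of all probe sets. In comm/WT embryos vkg rose by 0.67 ± 0.10 against WT (1.59-fold, limma adjusted p = 2.4e-07), and it was lower in comm than in comm/WT by 0.51 ± 0.11 (adjusted p = 0.00041). The comm arrays lay between 14.14 and 14.17. Col4a1 rose less, by 0.11 in comm/WT (adjusted p = 0.16, not called), with r = 0.74 to vkg over the 18 group means.

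For the GAPDH control, the log2 excess of the 3' over the 5' probe set, which grows as RNA is degraded, was 2.80, 2.75, 1.81 and 1.78 in the comm/WT arrays in the same order, against a mean of 1.92 in comm and 1.71 in WT. Its part in the vkg result was not tested. Against WT, 9 groups had vkg higher and URyf had it lower (-0.29, adjusted p = 0.049). These higher calls depended on the processing: vkg was higher in 1 group, comm/WT, with quantile normalization (median change over the 17 comparisons 0.01) and with the array SD as a covariate (median -0.01), and in 2 in fits to the compared groups alone, against a median of 0.27 as reported. The URyf call was lost without URyf replicate 2, 3 or 5 or WT replicate 2, 3, 4 or 5, with -0.12 without URyf replicate 2. Without WT replicate 1, which read 13.32, 3 had it higher and 2 lower. In comm/WT the change without that array was 0.50.

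**Figure D5:**
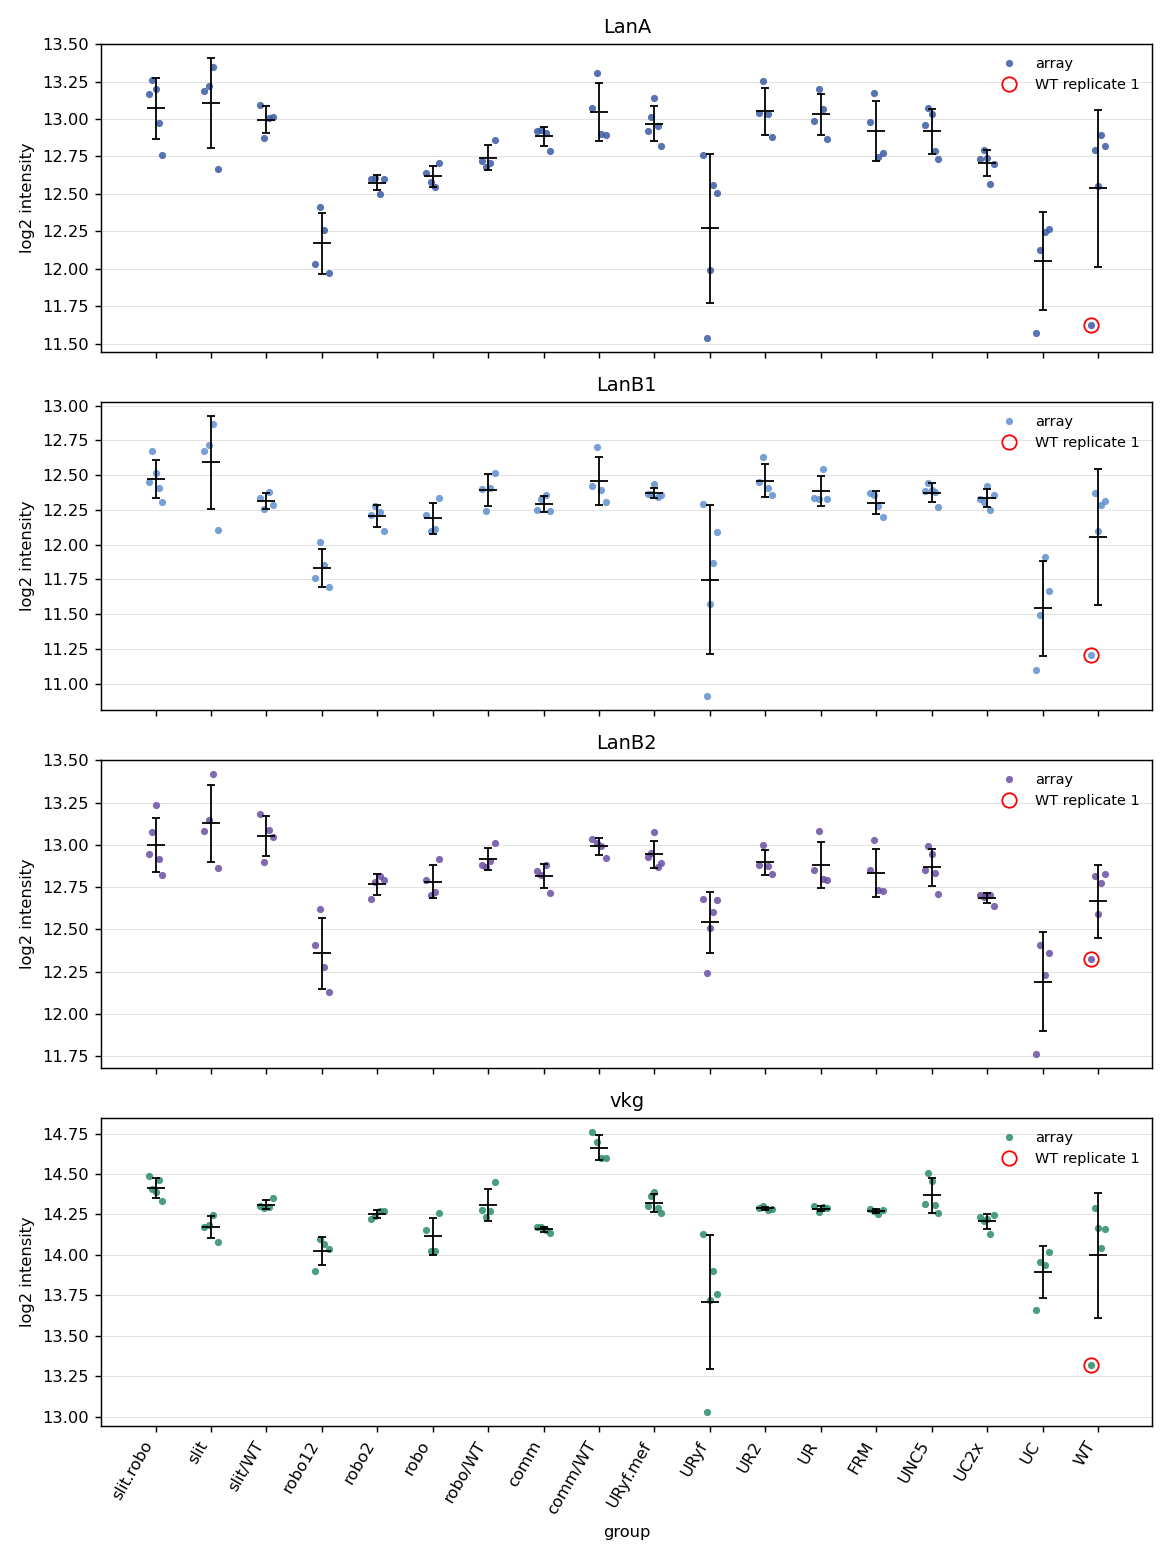
Log2 intensity of LanA, LanB1, LanB2 and vkg in each of the 78 arrays, by group, with group mean and SD as bars and WT replicate 1 circled. The circled array reads 11.63, 11.20, 12.32 and 13.32 and is the lowest WT array in each panel, and the comm/WT arrays of vkg (14.60 to 14.76) lie above all others.

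Over the 18 groups the group means of vkg had r = 0.79 with LanA, 0.80 with LanB1, 0.73 with LanB2 and 0.72 with Mp. The genes closest to the laminins were Swip-1 (0.97), eIF1 and osa for LanA, hrg, Serinc and Swip-1 for LanB1, and Amph, Swip-1 and Diap2 for LanB2. Those closest to vkg were flw (0.94), CG33298 and CG46339, and those closest to trol were galectin (0.88), CG32795 and Gat. These are descriptions over groups that share array SD and processing. In the order of group means, 16 of 17 neighbouring groups overlapped in their arrays for Mp, vkg and trol, and 17 of 17 for Pxn and the laminins. The gaps lay between URyf and WT for Mp, between comm/WT and slit.robo for vkg, and between FRM and UC for trol.

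Other genes of the same matrix were drawn from lists of 89 genes, of which 76 were measured. Other matrix proteins were higher in 45.6% of 136 tests and lower in 7.35%, where 16.4% and 23.4% were over all probe sets. The median change of these proteins' genes was 0.16. Among them Ndg, which encodes nidogen, was higher in 11 of 17 comparisons and lower in none, prc, which encodes the heart matrix collagen pericardin, was higher in 12, and the laminin alpha chain gene wb was higher in 10 and lower in 3. Tig, which encodes the integrin ligand Tiggrin, was higher in 8 and lower in 3. Col4a1 was higher in 6, with a median of 0.13. In slit.robo embryos Ndg rose by 0.54 and prc by 0.59.

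Receptors and adaptors that bind this matrix were higher in 47.1% of 170 tests and lower in 1.76%. Their examples were rhea (talin, higher in 11), Dg (dystroglycan, higher in 9 and lower in 1), the integrin gene if (higher in 9) and stck (PINCH, higher in 12). Genes of collagen processing and secretion were higher in 19.1% of 136 tests and lower in 21.3%, near the 16.4% and 23.4% over all probe sets. Among them Crag, needed for polarised secretion of basement membrane, was higher in 11, while Loxl2 and Loxl1, of the lysyl oxidase family, were lower in 8 and 5, and PH4alphaEFB, a prolyl hydroxylase, was lower in 8 and higher in 1. Crag and Loxl2 had mean levels in the lowest 40% of probe sets, at percentiles 34.2 and 9.4. Of the matrix proteases and inhibitors, Timp was higher in 11 comparisons, Mmp2 was higher in 4, and stl and AdamTS-A were lower in 10 and 9.

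Lists for other cell types moved as well. Over all probe sets, 16.4% of the tests were called higher and 23.4% lower. Muscle genes (6 of 10 measured) were higher in 52.9% of 102 tests and lower in 1.96%. Neuron genes (4 of 5 measured) were higher in 45.6% of 68 and lower in 0%. Fat body genes (4 of 7 measured) were higher in 25% and lower in 32.4% of 68. Glia genes (6 of 6 measured) were higher in 27.5% of 102 and lower in 11.8%. Heart genes (3 of 4 measured) were higher in 3.92% of 51 and lower in 1.96%. The summed muscle intensity had medians of 133001 to 161594 in the other groups and 134211 in WT (arrays 126137 to 140837). For the neuron list the medians were 5486 to 8836 in the other groups and 5161 in WT (arrays 4802 to 5257). This neuron sum follows mostly its brightest gene, fne (mean log2 11.89), which was higher than WT in 16 comparisons (median change 0.59). The median change was 0.02 for brp (higher in 1 comparison), 0.07 for nSyb (higher in 7) and 0.39 for elav (higher in 7). The mean level of elav lay at percentile 23.3. The neuron sum is therefore no measure of neuron number. The part of these lists in the changes of the 7 genes against WT was not tested.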

How the data were processed

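The deposited table holds 1 intensity per probe set and array on a linear scale, made by the authors with RMA, per the submitters' processing notes. The RMA version is not given. RNA was purified on QIAGEN columns and 6 ug of total RNA was labelled, per the labels' protocols. A log2 table had been planned for, and log2 was taken first. Of 14010 probe sets, 44 controls were left out. Names came from the platform annotation, updated through Entrez identifiers to RefSeq for 12394 of 12443 probe sets with a single name.

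limma 3.58.1 in R 4.3.3 fitted 18 group means to all 78 arrays (60 residual degrees of freedom), for 17 contrasts with WT and 12 of related groups. P-values are two-sided and adjusted by Benjamini-Hochberg over the 13966 probe sets of a comparison. Errors of changes are standard errors, and intervals cover 95%. Named genes of the 4 matrix lists were the 4 with the largest absolute median change in each list, beside Col4a1. Those named from the late epidermis list were chosen after their values were seen. The fit was tested on simulated data. No 2 arrays were identical. Same-numbered arrays did not deviate together (median r = 0.01 over the pairs), so the numbers were not taken to pair samples.

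The 7 genes and the gene lists were chosen with earlier results of these data known, and the markers of other cell types likewise. The alternatives were quantile normalization, no probe sets below percentile 40, fits to the compared groups alone, array weights, the replicate number as a block, each array left out, a reference made of the other 16 groups' mean, and other probe sets. An array SD covariate, and a fit without 6 arrays whose SD lay over 0.05 from their group median, were also run. The tests of Pxn changes between mutants, and the hemocyte markers named beside Pxn, were chosen after their values were seen.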

Additional observations from a re-analysis of the deposited data

Results flagged for a closer look

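In 10 of 126 tests of a gene within a group, 1 array stood far from the others of its group. Chance flags about 1 in 20 groups (5%). WT replicate 1 accounts for 3 of them: it read 11.63 for LanA, where the nearest WT array read 12.55, 11.20 for LanB1 (nearest 12.10) and 13.32 for vkg (nearest 14.04). For trol, slit.robo replicate 5 read 11.27 (nearest 11.56), robo2 replicate 3 read 11.06 (nearest 11.39) and robo/WT replicate 4 read 10.80 (nearest 10.57). The rest were smaller gaps in tight groups: LanA read 12.50 in robo2 replicate 3 (nearest 12.60) and 12.79 in comm replicate 4 (nearest 12.91), LanB1 read 12.55 in UR replicate 3 (nearest 12.34), and LanB2 read 12.64 in UC2x replicate 5 (nearest 12.69).

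The change of Pxn in the mutant against its own /WT group differed between mutants. The slit change minus the comm change was -0.62 ± 0.12 (limma adjusted p = 0.00015), in a test that called 14.3% of all probe sets. The robo change minus the comm change was -0.53 ± 0.12 (adjusted p = 0.0043), in a test that called 2.57%. The slit change minus the robo change was -0.10 (adjusted p = 0.69). Of the 21 such differences computed over the 7 genes and 3 pairs of mutants, these 2 were called, and they were chosen after seeing the data.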

How the results depend on the processing

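The counts of 62 higher, 12 lower and 40 related calls (of 119, 119 and 84) became 30, 23 and 26 with the array SD as a covariate, 37 and 7 against WT with only the compared groups, and 39 higher with quantile normalization. The replicate block gave 59, 11 and 40. Leaving out 1 array gave 38 to 70 higher, 8 to 17 lower and 38 to 45 related calls, lowest for higher calls without WT replicate 1. Mp kept 17 higher calls, and Pxn its 5 lower calls in slit.robo, slit, robo12, robo2 and robo, under the normalization, filter, model and left-out-array settings. The robo call of trol was lost in the fit to robo and WT alone (adjusted p = 0.16) and on leaving out the 6 arrays of unusual SD (adjusted p = 0.056). Of its 17 comparisons, trol was higher in 12 in fits to the compared groups alone, against 14 in the main fit. With the array SD as a covariate it was higher in 11, with a median change of 0.20 in place of 0.42.

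Some changes reversed sign, and the cause was not tested. With the array SD: Pxn, UC2x -0.22 and URyf.mef against URyf -0.051. LanA, slit.robo -0.10, slit/WT -0.18, URyf.mef -0.26, FRM -0.014, UNC5 -0.25, UC2x -0.46, slit.robo against robo -0.032 and UC2x against UC -0.032. LanB1, slit.robo -0.17, slit/WT -0.33, URyf.mef -0.32, UNC5 -0.26, UC2x -0.30 and URyf.mef against URyf -0.014. LanB2, UC2x -0.30 and URyf.mef -0.076. For vkg, slit.robo -0.013, slit/WT -0.12, URyf.mef -0.15, UNC5 -0.060, UC2x -0.22, slit.robo against robo -0.032 and UC2x against UC -0.16. With quantile normalization, LanB2 in UC2x was -0.22 and vkg in URyf.mef -0.0020. Without arrays apart, vkg in robo12 was -0.14.

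Against the mean of the other 16 groups, Mp gave slit -0.31, slit/WT -0.0071, robo12 -0.62, robo -0.032, robo/WT -0.10, URyf -0.68, UR2 -0.034, UC2x -0.10 and UC -0.24. Pxn gave slit/WT 0.21, robo/WT 0.20 and URyf.mef 0.16, vkg gave robo12 -0.21, and trol gave robo12 -0.026, robo -0.087, robo/WT -0.40, URyf -0.41, UR2 -0.12, UR -0.060, FRM -0.14 and UC -0.31. By 148297_at, Mp gave slit.robo -0.071, slit -0.14, slit/WT -0.029, robo12 -0.0034, robo -0.039, robo/WT -0.16, comm -0.12, comm/WT -0.059, URyf.mef -0.20, UNC5 -0.022 and UC2x -0.18. With 4 or 5 arrays per group, a missed threshold does not show that levels did not differ.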
